A study of Mus musculus with 48 samples.

Results

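The insulin-like growth factor (IGF) family was examined in 48 mouse mammary tumors through 10 genes: the ligands Igf1 and Igf2, the receptors Igf1r and Igf2r, and the binding proteins Igfbp2, Igfbp3, Igfbp4, Igfbp5, Igfbp6 and Igfbp7. They were chosen by gene symbol and are 10 of the 19938 genes that the array annotation names. IGF-1 and IGF-2 are secreted hormones that signal for growth and survival through the IGF-1 receptor, a tyrosine kinase, whereas the IGF-2 receptor takes up IGF-2 and delivers it, along with lysosomal enzymes, to the lysosome. Binding proteins hold most extracellular IGF, and can withhold it from the receptor or carry it there. In the mammary gland the pathway is known for its part in duct growth under growth hormone, and Igfbp5 for its rise in milk-producing epithelium at involution.

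Each of 12 models was a single mammary tumor cell line, injected into the number 4 mammary fat pad of fully immunocompetent female mice of the same strain, 6 to 8 weeks old by the study's methods. Tumors were collected at a diameter between 0.5 and 1.0 cm, freed of surrounding tissue, and frozen, and 4 separate tumors per model were each measured on an Affymetrix array as log2 signal. The Balb/c models TS/A-E1, F311, D2A1, 4T1 and EMT-6 came from spontaneous tumors, as did E0771 in C57Bl/6 mice. The FVB/N models Met-1, MVT-1, 6DT1, M6 and HRM-1, and R3T in 129Sv mice, came from tumors of genetically engineered animals, in the case of MVT-1 a mouse with MMTV-driven Myc and VEGF transgenes by the study's methods. No animal had been treated, there was no normal gland among the samples, and each model stands for 1 line. For 4T1, F311 and MVT-1 the study's methods give differing numbers of injected cells and days of growth. In a difference between models, the line, the injected number, the days of growth and the host strain, where it differs, cannot be told apart.

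The array medians lay between 6.76 and 6.99, and no pair of tumors was a duplicate. The mammary keratin Krt8 was between 10.63 and 13.40 in all tumors, while the epithelial adhesion gene Epcam ranged from 5.73 to 11.90, and the mean over 13 luminal markers was lowest in E0771 (-1.46) and D2A1 (-1.43) relative to the mean of all tumors. In 9 tumors the adipocyte or B cell markers stood more than 2.5 log2 above their mean: 4T1 replicate 3, 6DT1 replicates 2 and 3, E0771 replicate 1, EMT-6 replicate 3, F311 replicates 1 and 2, Met-1 replicate 2 and R3T replicate 2. Of these, F311 replicate 1 and Met-1 replicate 2 resembled each other (r = 0.98) more than any tumor of their own model, and 6DT1 replicate 4 was nearest to an MVT-1 tumor.

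Receptors and binding proteins differed between the models, while the ligands did not pass the test. In the limma F-test over the 12 models, 8 of the 10 members passed at an adjusted p under 0.05, against 70.4% of all genes, so that the count of members is near the background. The differences were larger than in the median gene. The highest and lowest model means of a member were a median of 2.18 log2 apart, against 0.68 over all genes, and 5 of the 10 spanned more than 2 log2 where 10.2% of all genes did. Since the members were chosen with earlier results of these data known, these ranges are a description. Except for Igf2 and Igfbp2, the members lay above the median gene in mean signal. Their ranges were not compared with those of genes of like signal. Across the 66 pairs of models, 198 of the members' 660 comparisons passed, against 26.5% over all genes, so that this share too is near the background. Counts of pairs were highest for Igf2r (37), Igfbp4 (34) and Igfbp6 (32), and lowest for Igf1 (2) and Igf2 (4). In whole tumors, fewer cells of a type and less RNA per cell cannot be told apart. Levels of different genes come from different probes and are not set against each other.

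**Figure D1:**
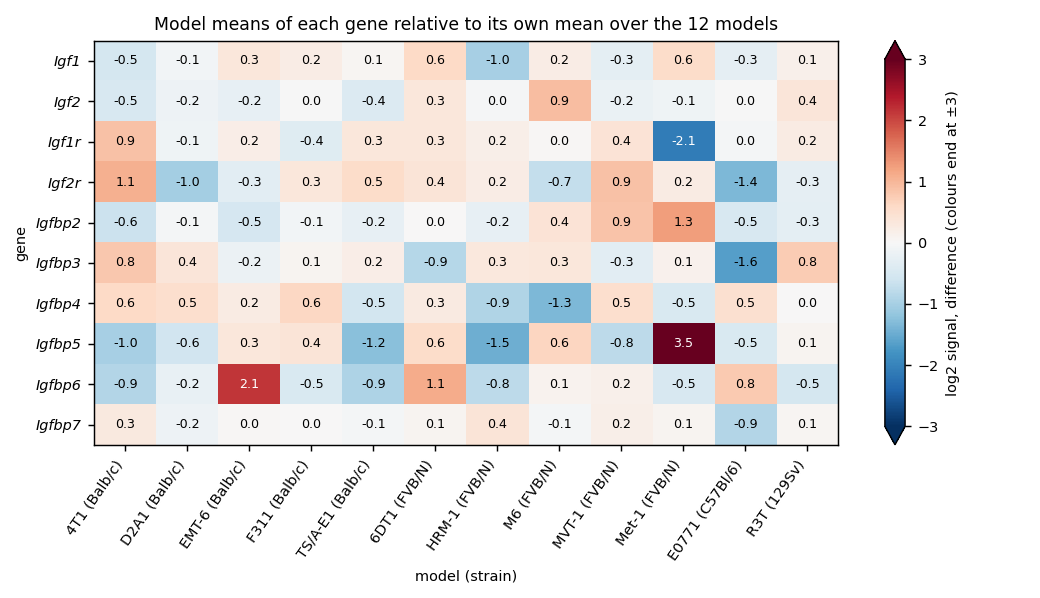
Model means of the 10 members, each as the difference in log2 signal from that gene's own mean over the 12 models (rows are genes, columns are models with their strain). The widest departures are Igfbp5 at 3.51 above and Igf1r at 2.11 below their means in Met-1, and Igfbp6 at 2.14 above its mean in EMT-6.

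When the models were ranked by each member, 4 of the 110 steps between neighbouring models passed the pair test, and these were where a single model stood apart. Met-1 was lowest for Igf1r and highest for Igfbp5, EMT-6 was highest for Igfbp6, and E0771 was lowest for Igfbp7. At the other 106 steps neighbours did not pass, although at 7 of these, for Igf1r, Igf2r and Igfbp4, the tumors of the 2 models did not overlap.

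Because Met-1 lay at one end of the order for Igf1r, Igfbp5 and Igfbp2, the bases before the start of these 3 genes are shown. They come from the RefSeq promoter table (build GRCm38.p6), 250 bases up to the annotated start, written 5′ to 3′ on the gene's strand. Capitals mark GGGCGG (the GC box) and CACGTG (an E-box), searched on both strands together with TATAAA (the TATA box).
Igf1r, chr7:67952007-67952256, plus strand: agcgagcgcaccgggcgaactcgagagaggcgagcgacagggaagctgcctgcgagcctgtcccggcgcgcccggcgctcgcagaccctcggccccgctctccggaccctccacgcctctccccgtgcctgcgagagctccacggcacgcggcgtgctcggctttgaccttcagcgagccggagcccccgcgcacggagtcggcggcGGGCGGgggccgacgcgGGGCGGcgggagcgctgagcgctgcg
Igfbp5, chr1:72874866-72875115, minus strand: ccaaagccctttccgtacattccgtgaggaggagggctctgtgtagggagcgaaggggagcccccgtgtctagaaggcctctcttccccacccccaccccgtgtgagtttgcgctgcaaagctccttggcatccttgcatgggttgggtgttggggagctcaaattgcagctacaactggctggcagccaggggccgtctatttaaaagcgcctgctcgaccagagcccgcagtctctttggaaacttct
Igfbp2, chr1:72824230-72824479, plus strand: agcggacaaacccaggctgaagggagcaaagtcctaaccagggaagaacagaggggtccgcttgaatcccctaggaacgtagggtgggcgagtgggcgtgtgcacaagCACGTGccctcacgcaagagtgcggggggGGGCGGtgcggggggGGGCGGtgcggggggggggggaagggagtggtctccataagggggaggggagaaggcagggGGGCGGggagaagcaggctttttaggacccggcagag
The Igf1r window held 2 GC boxes, the Igfbp2 window 3 GC boxes and 1 E-box, and the Igfbp5 window none of these motifs in exactly these letters. Over all 32851 RefSeq windows of this length, 32.7% held a GC box, 12.4% the TATA box letters and 6.02% the E-box. Igfbp2 and Igfbp5 are neighbouring genes on chromosome 1, read from opposite strands, and the table lists a second start for Igfbp2. All 10 members had at least 1 window, and among the others Igf2r had 3 GC boxes and 2 E-boxes, Igfbp7 had 4 GC boxes, Igf2 had GC boxes in 2 of its 4 windows, and Igfbp4 and Igfbp6 had 1 TATA box each. A match of letters is a description of the sequence and was not tested as a binding site.

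Igf1, the growth hormone-responsive ligand, had the widest scatter within models of the members other than Igfbp5, and did not pass the F-test over models (adjusted p = 0.31). The model means ran from 9.98 ± 1.82 (SD, n = 4) in 6DT1 to 8.37 ± 0.44 in HRM-1, and 27.2% of the variance lay between models. Tumors of 6DT1 read 7.88, 11.26, 11.71 and 9.07, so that 1 model covered nearly the whole range of the series. HRM-1 tumors read 7.87, 8.12, 8.67 and 8.79, and Met-1 tumors 9.76, 10.44, 10.24 and 9.29. These 2 groups did not overlap, and the pair comparisons passed for Met-1 over HRM-1 (2.96-fold, limma adjusted p = 0.040) and for 6DT1 over HRM-1 (3.06-fold, adjusted p = 0.034). Both calls turned on single tumors. Without HRM-1 replicate 1 or replicate 2 no Igf1 pair passed, without 6DT1 replicate 2 or 3 or Met-1 replicate 1, 2 or 3 only 1 pair passed, and without 6DT1 replicate 1 there were 6 pairs and the F-test passed (range 2.31, adjusted p = 0.044). Without the 9 tumors rich in fat or B cell markers the F-test passed as well (range 1.40, adjusted p = 0.048).

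Igf2, the imprinted fetal ligand, was highest in M6 at 8.08 ± 1.70 (SD, n = 4) and lowest in 4T1 at 6.67 ± 0.13, and did not pass over the models (adjusted p = 0.16). The M6 tumors read 6.99, 6.99, 10.56 and 7.76. The value of 10.56 in M6 replicate 3 was the highest of the 48 tumors, and the other 3 M6 tumors lay among the rest of the series, whose highest was 8.38 in 6DT1 replicate 3. M6 was higher than 4T1, TS/A-E1, EMT-6 and MVT-1 in the pair test (2.65-, 2.53-, 2.25- and 2.19-fold, adjusted p from 0.012 to 0.045). These differences rested on M6 replicate 3, and without it they were 1.49-, 1.42-, 1.27- and 1.24-fold, with adjusted p of 0.17, 0.23, 0.46 and 0.53. With M6 replicate 3 left out, M6 fell below R3T by 0.26 on the log2 scale where it had been 0.57 above, a difference that did not pass either way (adjusted p = 0.61 and 0.38). Leaving out M6 replicate 1 or replicate 2 instead raised the passing Igf2 pairs from 4 to 9. M6 replicate 3 was not among the 9 rich in fat or B cell markers, with an adipocyte score of -0.93 and a B cell score of -0.63. Its fibroblast (0.43), endothelial (-0.003) and macrophage (-0.43) scores were the highest of the 4 M6 tumors. Its basal and myoepithelial score (0.71) and its luminal score (0.24) were the lowest of the 4.

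**Figure D2:**
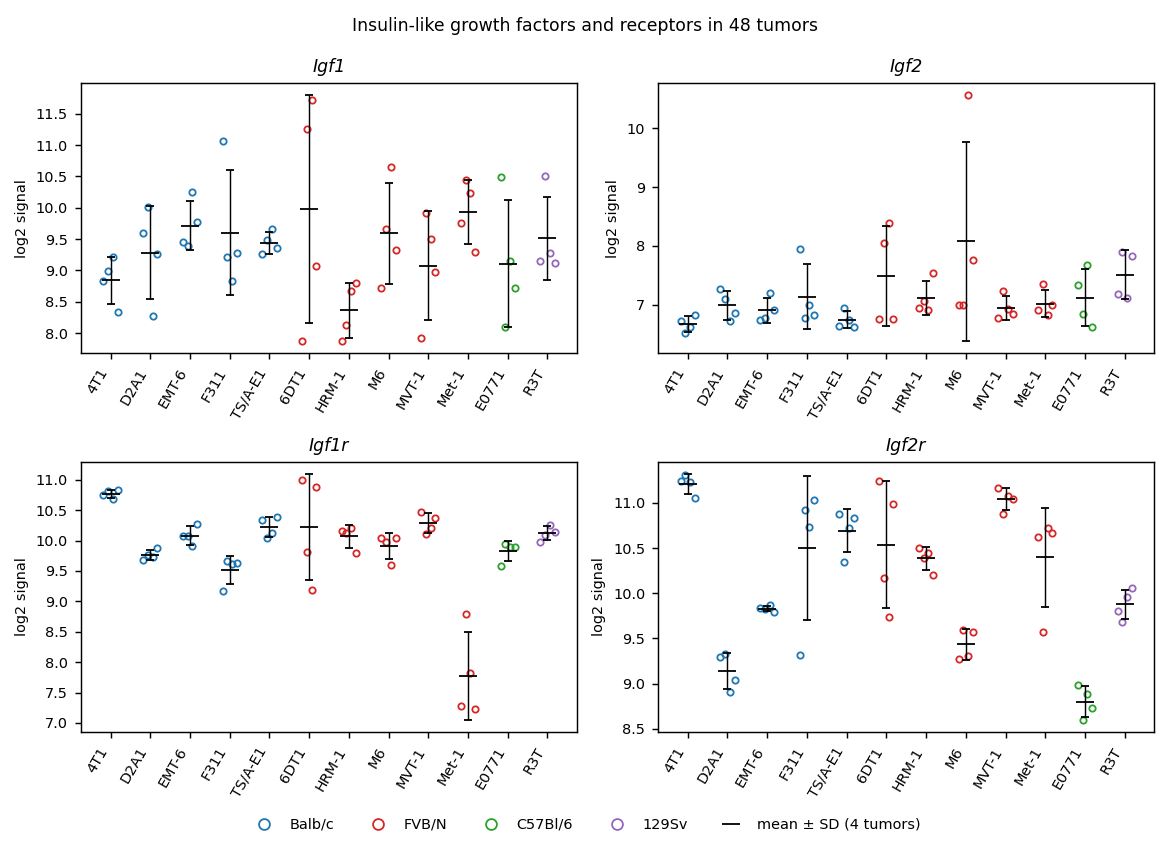
Log2 signal of Igf1, Igf2, Igf1r and Igf2r in each of the 48 tumors, grouped by model and coloured by strain, with the mean and SD of 4 tumors in black. The 4 Met-1 tumors lie below all others for Igf1r, the M6 tumor at 10.56 stands alone for Igf2, and Igf1 scatters from 7.88 to 11.71 within 6DT1.

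Igf1r, the signalling receptor, was 7.97-fold higher in 4T1 than in Met-1 (10.77 ± 0.06 and 7.78 ± 0.72, SD, n = 4 each, limma F-test over models adjusted p = 1.1e-10). The Met-1 tumors read 7.28, 8.78, 7.81 and 7.22, and the lowest tumor of any other model read 9.17. Met-1 thus lay below all 44 other tumors and below each of the 11 other models in the pair test. The nearest was F311 at 9.52 ± 0.23, higher by 1.74 on the log2 scale (SE 0.25, 3.34-fold, adjusted p = 7.1e-07). The highest Met-1 tumor was replicate 2, which is one of the 9 rich in fat or B cell markers, and without all 9 the gap to F311 was 2.18. At the upper end the 4T1 tumors read 10.76, 10.81, 10.69 and 10.83, and passed over 8 models but not over MVT-1 (adjusted p = 0.17), TS/A-E1 or 6DT1. The 6DT1 tumors were split, at 11.00, 9.81, 9.18 and 10.88, with the 2 lower values in the replicates rich in adipocyte markers. Pairs passed by Igf1r went from 21 to 43 without the 9 tumors. For this and the other members, the share of all genes' pairs passing without the 9 tumors was not counted. Changes in these counts therefore have no background beside them.

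Igf2r, the clearance receptor, ran from 11.21 ± 0.11 in 4T1 to 8.80 ± 0.17 in E0771 (SD, n = 4 each), a 5.31-fold range (adjusted p = 1.6e-10), with 83.1% of its variance between models. The 4T1 tumors read 11.24, 11.31, 11.23 and 11.05, and the E0771 tumors 8.99, 8.60, 8.88 and 8.73. E0771 and D2A1 (9.29, 9.32, 8.91 and 9.04) were each lower than 9 models, and M6, at 9.43 ± 0.17, was lower than 7. No pair among these 3 models passed. 4T1 was higher than 9 models but not than MVT-1 (11.04 ± 0.12, adjusted p = 0.72) or TS/A-E1. In 2 models a tumor rich in B cell markers was the low one, with F311 replicate 1 at 9.32 against 10.74 to 11.03, and Met-1 replicate 2 at 9.57 against 10.62 to 10.73. Of these, F311 replicate 1 was rich in adipocyte markers too. The pairs passed by Igf2r went from 37 to 55 without the 9 tumors and to 43 without F311 replicate 1 alone. Both receptors were highest in 4T1, while the lowest model differed, Met-1 for Igf1r and E0771 for Igf2r.

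Igfbp5, which is known to bind IGFs and matrix, had the widest range of model means among the members, 4.99 log2 or 31.7-fold, wider than that of 99.7% of all genes (adjusted p = 0.0012). Met-1 tumors read 12.85, 12.23, 12.96 and 12.86, a mean of 12.72 ± 0.33 (SD, n = 4), and all lay above every other tumor, the next being 6DT1 replicate 2 at 12.21. Met-1 was higher than each of the 11 other models, and no pair among these 11 passed. Over M6, the next model at 9.86 ± 1.01, it was 7.29-fold higher (difference 2.87, SE 0.94, adjusted p = 0.019). That step was 2.58 without M6 replicate 1 (adjusted p = 0.059) and 2.66 without M6 replicate 4 (adjusted p = 0.051), and 3.03 without the 9 tumors rich in fat or B cell markers (adjusted p = 0.0011). Tumors scattered widely in several models, among them 6DT1, at 7.49, 12.21, 12.00 and 7.37, and F311, at 11.64, 9.20, 9.69 and 7.86, whereas HRM-1, the lowest model, read 7.62, 7.37, 7.97 and 7.99. In the same order, the adipocyte scores of the 6DT1 tumors were -1.71, 3.45, 3.77 and -1.78, their basal and myoepithelial scores -1.02, 1.88, 2.66 and -0.93, and their luminal scores -1.02, 1.25, 0.98 and -1.01. F311 replicate 1 had the highest basal and myoepithelial score of its model, 1.56. The part of these cell types in the level of Igfbp5 was not tested.

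Igfbp2, one of the main binding proteins of blood, was highest in Met-1 and MVT-1 (F-test over models adjusted p = 1.5e-05). Met-1 tumors read 9.06, 8.33, 8.41 and 8.63, and MVT-1 tumors 7.48, 9.31, 8.67 and 7.37. Met-1 was higher than 10 models and MVT-1 than 9, and the difference between them did not pass (0.40, SE 0.32, adjusted p = 0.41). M6 came next, at 7.77 ± 0.53 (SD, n = 4), higher than 3 models, the other 9 models lying between 6.71 and 7.36 with no pair that passed among them. The lowest was 4T1 at 6.71 ± 0.14, 3.73-fold below Met-1. The highest 3 models were all FVB/N, yet HRM-1 (7.10) of that strain lay among the Balb/c models and 6DT1 (7.36) just above them. Without the 9 tumors 22 pairs passed, as many as with them.

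Igfbp3, the main carrier of IGF in blood, was lowest in E0771, whose tumors read 9.34, 9.78, 9.26 and 9.89. E0771 was lower than 10 models and was not separated from 6DT1 (10.36 ± 0.67, SD, n = 4, adjusted p = 0.11), which itself was lower than 7. The highest model was 4T1, with tumors at 12.15, 11.95, 12.20 and 11.80, a 5.49-fold difference from E0771 (F-test over models adjusted p = 3.8e-06). F311 replicate 1 read 9.67 beside 11.80, 11.82 and 11.85 in the other F311 tumors, and so lay among the E0771 values. Among the 8 models from 4T1 to F311 no pair passed. The 20 pairs passed by Igfbp3 became 18 without the 9 tumors and 24 without F311 replicate 1 alone.

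Igfbp4, a binding protein that inhibits IGF action and is cut by the protease Pappa, was low in 4 models (adjusted p = 2.1e-10, 82.9% of the variance between models). It varied little within most models, with the widest SD in M6 (0.95) and Met-1 (0.48). Tumors of EMT-6 read 11.56, 11.62, 11.59 and 11.47, and those of TS/A-E1 read 10.67, 10.91, 10.78 and 10.76. M6 was lower than 10 models, HRM-1 than 8, and Met-1 and TS/A-E1 than 7 each, whereas the 7 models from F311 (11.94 ± 0.22, SD, n = 4) down to EMT-6 gave no passing pair among themselves. M6 tumors read 9.10, 9.93, 11.31 and 9.59, and the high one, replicate 3, is the tumor in which Igf2 was 10.56. The step from HRM-1 to M6 did not pass (0.44, adjusted p = 0.16), but did without M6 replicate 3, M6 being lower by 0.89 (adjusted p = 3.1e-05). Without the 9 tumors the pairs went from 34 to 32.

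Igfbp6, which prefers IGF-2 to IGF-1, was highest in EMT-6, whose tumors at 10.36, 10.54, 10.12 and 9.96 lay above all others. The next was 6DT1 at 8.56, 9.30, 9.80 and 9.22, followed by E0771 at 8.93, 8.63, 9.03 and 8.95. EMT-6 was 2.04-fold higher than 6DT1 (difference 1.03, SE 0.35, adjusted p = 0.027) and 8.45-fold higher than TS/A-E1, the lowest model (7.17 ± 0.08, SD, n = 4; F-test over models adjusted p = 2.1e-09). The step to 6DT1 did not pass without 6DT1 replicate 1 (0.81, adjusted p = 0.11), EMT-6 replicate 1 (0.99, adjusted p = 0.057) or EMT-6 replicate 2 (0.93, adjusted p = 0.074), and was 1.40 without the 9 tumors rich in fat or B cell markers (adjusted p = 0.0042). Igfbp6 was the only member with EMT-6 at the top of its order. The models next to it, 6DT1 and E0771, were the lowest for Igfbp3, and over the 12 model means r between Igfbp3 and Igfbp6 was -0.62, as a description.

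Igfbp7, an IGFBP-related protein of vessel walls with low affinity for IGF, had the smallest range of the members, 1.26 log2 or 2.40-fold (adjusted p = 3.3e-06). E0771 was lower than all 11 other models, with tumors at 12.60, 11.50, 11.65 and 11.76. Its first tumor, one of those rich in adipocyte markers, overlapped the other models, and its other 3 tumors were lower than all 44 tumors outside E0771. The step from D2A1 down to E0771 was 0.73 (SE 0.16, 1.66-fold, adjusted p = 0.00065) and was 0.97 without E0771 replicate 1. HRM-1 was highest, at 13.17, 13.12, 13.15 and 13.12, and passed over 4 models. Without the 9 tumors the pairs passed went from 15 to 27. E0771 was therefore at the bottom of the order for Igf2r, Igfbp3 and Igfbp7 but below only EMT-6 and 6DT1 for Igfbp6.

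**Figure D3:**
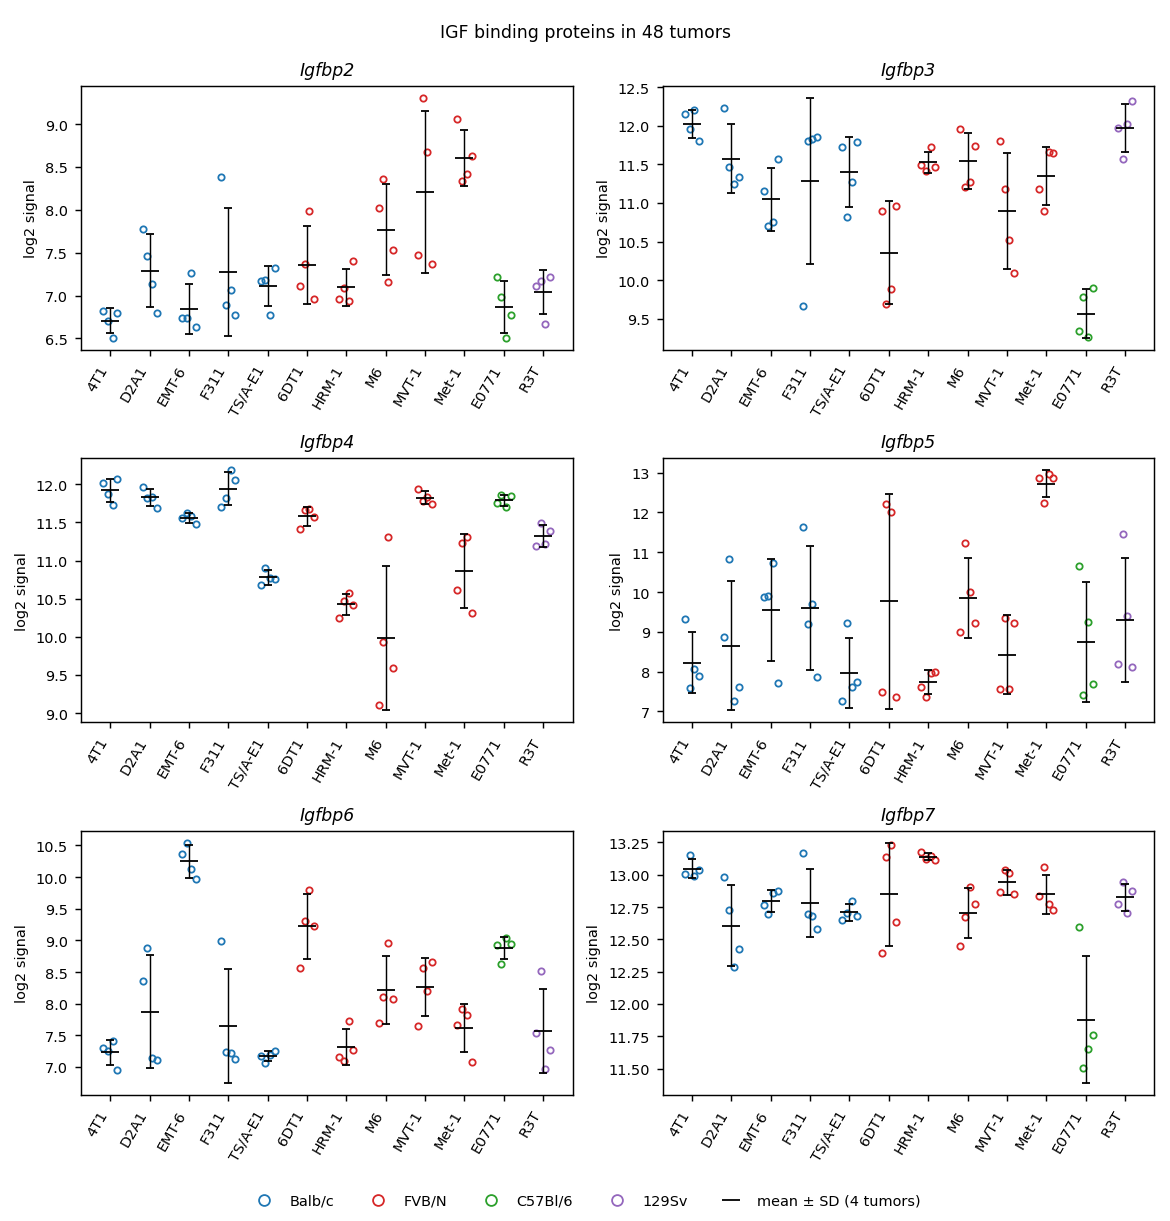
Log2 signal of the 6 binding proteins in each of the 48 tumors, grouped by model and coloured by strain, with the mean and SD of 4 tumors in black. The 4 Met-1 tumors (12.23 to 12.96) top Igfbp5, the 4 EMT-6 tumors (9.96 to 10.54) top Igfbp6, and E0771 is lowest for Igfbp3 and Igfbp7.

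Whether levels differed with the strain of the mouse was asked on the model means, 5 Balb/c against 5 FVB/N, since tumors of a line are not separate samples of a strain. No member passed, with 0.191% of all genes passing by the limma test, and the model means of the strains overlapped for all 10 members. Igfbp2 was the only member with an unadjusted p under 0.05, at 7.05 ± 0.26 in Balb/c and 7.81 ± 0.61 in FVB/N models (SD, n = 5 each), a difference of -0.76 (SE 0.28, adjusted p = 0.52, exact two-sided permutation p = 0.040 for the single gene over 252 arrangements). Igf2 followed, with a difference of -0.44 (SE 0.21, exact permutation p = 0.063). In these 10 models all Balb/c lines were of spontaneous and all FVB/N lines of engineered origin, so strain and origin cannot be told apart.

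How the members moved from tumor to tumor inside a model was measured against 6 marker scores, each the mean log2 departure of a list of cell type markers. Slopes are in log2 signal per unit of score, from limma with a term for each model, and 39 of the 60 slopes passed. For the score of 12 fibroblast markers 6 members rose (13.3% of all genes rose) and 3 fell (23% of all genes fell). Igf1 rose by 1.44 (SE 0.12, adjusted p = 8.4e-12), Igfbp5 by 1.68 (SE 0.33), Igfbp6 by 0.77 (SE 0.10, adjusted p = 2.9e-07), Igf2 by 0.69 (SE 0.16), Igfbp7 by 0.36 (SE 0.04, adjusted p = 1.1e-07) and Igfbp2 by 0.33 (SE 0.13). Igf1r, Igf2r and Igfbp3 had negative slopes of -0.29, -0.28 and -0.38. For 7 adipocyte markers 6 members rose (14.1% of all genes) and 3 fell (25.8%), led by Igfbp5 at 0.70 (SE 0.08, adjusted p = 5.5e-09) and Igf1 at 0.41 (SE 0.05, adjusted p = 9.1e-08). Igf2r (-0.14), Igf1r (-0.10) and Igfbp3 (-0.21) were those that fell.

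For the 11 endothelial markers 6 members rose (15.1% of all genes) and 3 fell (25.2%), with the smallest adjusted p for Igfbp7 at 0.45 (SE 0.05, adjusted p = 6.1e-09). With the 12 macrophage markers 5 members passed, and all 5 rose (4.89% of all genes rose and 6.05% fell), Igf1 by 1.81 (SE 0.37), Igfbp6 by 1.00 (SE 0.24) and Igfbp7 by 0.45 (SE 0.11) among them. With the 13 luminal markers 4 rose (12.6% of all genes) and 2 fell (22.4%), Igfbp5 by 1.94 (SE 0.27, adjusted p = 5.6e-07), while Igf1r fell by 0.42 (SE 0.09). The B cell score moved with 1 member, Igf2r, at -0.16 (SE 0.04), where 8.76% of all genes rose and 15% fell, and this slope was -0.093 without F311 replicate 1 (adjusted p = 0.16) and -0.12 without Met-1 replicate 2 (adjusted p = 0.092). Igfbp4 passed with none of the 6 scores. The scores share tumors and rise together in several of them, and what part each cell type had in these slopes was not tested.

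Most of these slopes did not pass once the 9 tumors rich in fat or B cell markers were left out. Without them, in 39 tumors, 8 of the 39 slopes passed: Igf1, Igfbp6 and Igfbp7 on the fibroblast score (1.06, 0.78 and 0.26) and on the macrophage score (1.40, 1.00 and 0.31), and Igfbp5 on the adipocyte (0.62) and luminal (2.38) scores. Igf2 on the luminal score, which had not passed in all tumors, passed as well. The negative slopes of Igf1r, Igf2r and Igfbp3 did not pass there on any score. Without 6DT1 replicate 1 the macrophage slopes of Igf1, Igf2, Igfbp5 and Igfbp7 did not pass in the full set (adjusted p = 0.059, 0.10, 0.13 and 0.091). The macrophage slope of Igf2 also missed without M6 replicate 1 (adjusted p = 0.075) or M6 replicate 3 (adjusted p = 0.14). That of Igfbp5 missed without D2A1 replicate 2 (adjusted p = 0.060). Slopes near the threshold turned on single tumors in many places: with 1 of the 48 tumors left out, Igf2 on the adipocyte score missed it in 38 fits, Igfbp2 on the fibroblast score in 30, Igfbp3 on the fibroblast score in 16 and on the endothelial score in 11. With the adipocyte score as a second term in all tumors, 11 of the 30 slopes on the other scores passed, those of Igf1, Igf2, Igfbp6 and Igfbp7 on the fibroblast score among them, while Igfbp5 passed on none. The share of all genes passing was not counted for the fits without the 9 tumors or with the adipocyte term. Leaving out tumors for their high adipocyte or B cell scores also narrows the range of those scores.

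**Figure D4:**
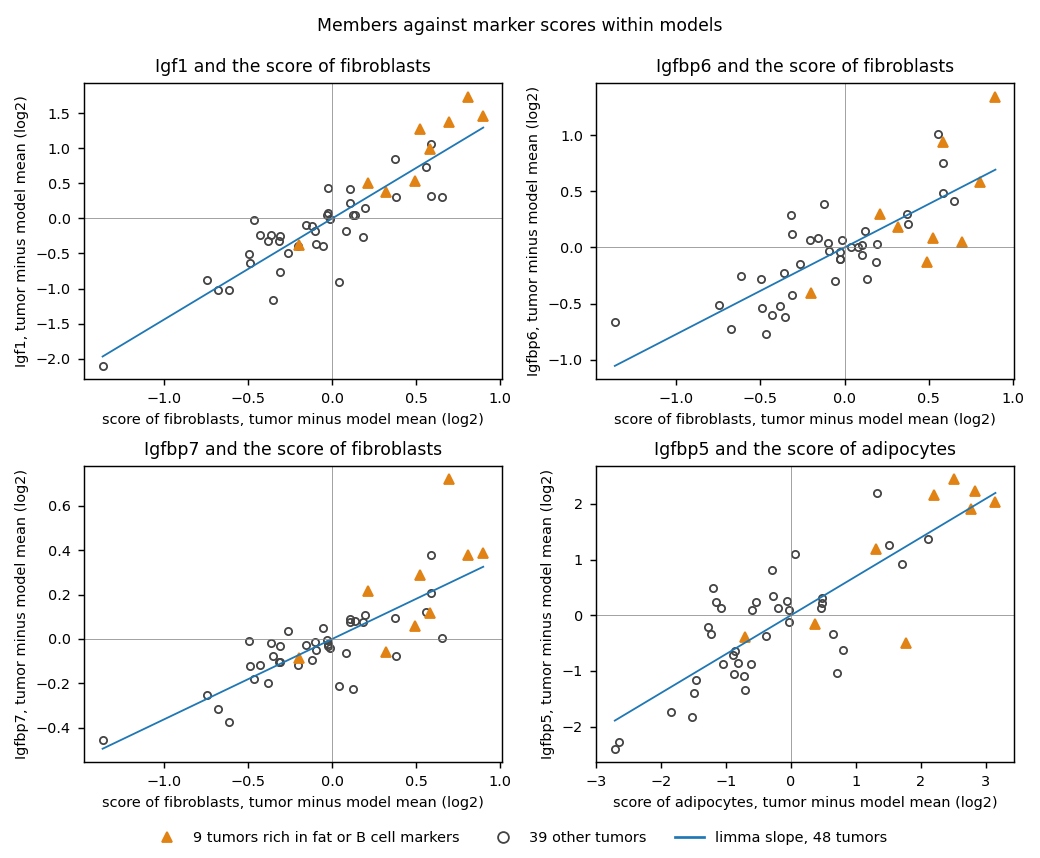
Tumor minus model mean of a member (vertical axis, log2 signal) against tumor minus model mean of a marker score (horizontal axis, log2) for Igf1, Igfbp6 and Igfbp7 with fibroblast markers and Igfbp5 with adipocyte markers, with the limma slope as a line. Orange triangles are the 9 tumors rich in fat or B cell markers, which sit mostly at the upper right of the Igf1 and Igfbp5 panels, where the slopes were 1.44 and 0.70.

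Among the members themselves, the model means of Igf1r and Igfbp5 ran in opposite directions (r = -0.85 over 12 models). That value rested on Met-1 and was -0.40 over the other 11 models. Likewise r between Igf1r and Igfbp2 went from -0.67 to -0.14 without Met-1, and between Igfbp2 and its neighbour Igfbp5 from 0.64 to 0.16. Igf1 with Igfbp5 (0.74, and 0.83 without Met-1) and Igf2r with Igfbp7 (0.75 both ways) were less tied to that model. The points are means of 4 tumors each on 1 array type and share the tumors' cell makeup, and these values are descriptions.

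The genes whose model means were most like those of a member were sought by r over the 12 models, among 6239 genes that spanned at least 1 log2. Igfbp5 was closest to Elf5 (r = 0.96), a transcription factor of milk-producing epithelium that is also on the luminal marker list, the whey acidic protein-domain gene Wfdc18 (0.96) and Lmo4 (0.95), all highest in Met-1. Igf2 was closest to R3hdml (0.97), Atp10b and the basal keratin Krt5 (0.90), all highest in M6. The M6 mean of Igf2 rested on replicate 3, at 10.56, and Krt5 did not pass the F-test over models (adjusted p = 0.18). For Igf1 they were Dpep1 (0.93), Abi3bp and Adamts15, all highest in 6DT1. Igf1r was closest to Arhgef17 (0.88), Ahnak and Map1b, and Igf2r to Cgnl1 (0.94), the prostaglandin transporter Slco2a1 (0.94) and Sash1, all 6 highest in 4T1. Igfbp3 was nearest to Sox4 (0.93), the collagen Col8a1 and the TGF-β receptor Tgfbr1 (0.91), and Igfbp6 to Chga (0.89), Rab36 and Akr1c14, the last 3 highest in EMT-6. The nearest to Igfbp2 were Il17b (0.90), Fam122b and Slc15a2, to Igfbp4 Rcn1 (0.91), Chst11 and Creb3l2, and to Igfbp7 Tctn1 (0.93), Tle5 and Scamp1. As the highest of 6239 values of r over 12 points, these are descriptions. They were not computed without Met-1 or M6, where Igfbp5 and Igf2 were highest.

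The other genes of the pathway were taken as 5 lists of 37 genes, of which 33 were measured and 28 passed the F-test over models, where 70.4% of all genes did, with a median range of 0.85 log2 against 0.68 over all genes. Of the receptors and adaptors 7 of 8 passed, of the partners and proteases of the binding proteins 5 of 8, of the genes around Igf2 and its RNA 2 of 3, of the PI3K and Akt branch 10 of 10, and of the growth hormone axis 4 of 4. None passed between strains, where 0.191% of all genes did. The insulin receptor Insr spanned 1.16, from 10.22 in R3T to 9.06 in EMT-6 (adjusted p = 6.6e-10). Irs1, the docking protein of the insulin and IGF-1 receptors, spanned 3.17 and was highest in F311 and lowest in E0771. Its relative Irs2 spanned 1.03 (D2A1 to E0771), and Insrr spanned 1.67 with its highest mean in EMT-6. The mean signal of Insrr over the 48 tumors was low, at 6.22.

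Among the regulators of the binding proteins, Igfbp1 (adjusted p = 0.23) and Igfals (adjusted p = 0.24), partners of circulating IGF that are made chiefly in liver, did not pass. Their mean signals over the 48 tumors, 5.90 and 6.12, lay below all array medians. At such low signal a missing pass says little. Pappa, the protease that releases IGF from Igfbp4, spanned 1.57, from 7.68 in R3T to 6.11 in E0771 (adjusted p = 1.1e-05). Its inhibitor Stc1 had the widest range of these lists, 3.73, from 10.94 in 4T1 to 7.22 in M6, and Htra1, a serine protease that can cut binding proteins, spanned 2.84 and was lowest in Met-1. Igf2bp1, which binds Igf2 RNA, spanned 3.72, from 9.73 in HRM-1 to 6.01 in M6. Downstream, Foxo1 spanned 2.39 (F311 to E0771) and the regulatory subunit Pik3r1 1.67 (Met-1 to D2A1). In the growth hormone axis the feedback inhibitor Socs2 spanned 2.22 (Met-1 to E0771) and the receptor Ghr 2.12 (D2A1 to E0771, adjusted p = 0.039). E0771 thus had the lowest model mean for Irs1, Irs2, Pappa, Foxo1, Socs2 and Ghr as well as for Igf2r, Igfbp3 and Igfbp7. It had the highest mean for Pappa2 (F-test over models adjusted p = 3.7e-06) and Stat5b (adjusted p = 0.017). The share of all genes that were lowest in E0771 was not counted. Its tumors scattered widely for Ghr (SD 1.58), Irs1 (1.56), Foxo1 (0.77) and Socs2 (0.70), and less for Irs2 (0.31) and Pappa (0.14). For these pathway genes the step to the next model was not examined, and for Igf2r and Igfbp3 it did not pass.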

How the data were processed

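Total RNA of 48 tumors, 4 from each of 12 models, had been labelled with biotin and hybridized to Affymetrix Mouse Gene 1.0 ST arrays, 1 array per tumor. Values for 35556 transcript clusters were deposited as log2 signal, already processed, and the normalization is not given in the sources used here. Groups, strain, origin and replicate number were taken from the labels, which call the tumors biological replicates. Clusters were named through the platform annotation, in which 21789 name 1 gene, 1621 several and 12146 none, and a gene was read from its brightest cluster (each member had 1). Listed genes without a named cluster were not analysed here. Members and gene lists were chosen with earlier results of these data known. Named genes were all members, Insr, Igfbp1, Igfals, Pappa and the 10 genes of the pathway lists with the widest range among those that passed, and the 3 genes most like each member. Pappa2 and Stat5b were named as the listed genes that were highest in E0771.

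With limma 3.58.1 in R 4.3.3, log2 signal was fitted with a coefficient per model (F-test), as 66 pair contrasts adjusted by Benjamini-Hochberg over all genes and pairs, as Balb/c minus FVB/N over model means, and with a marker score added to the model terms. A pass was an adjusted p under 0.05. Alternatives were quantile normalization, centring, averaging clusters, leaving out the dimmest 30% of genes, an intensity trend, a robust prior, a replicate block, marker scores as covariates, model medians, the methods' one-way test, and leaving out tumors or models. The replicate numbers were not treated as pairing tumors. Deviations of same-numbered tumors had a median correlation of 0.033, against 0.0029 for other numbers. They ran from -0.65 to 0.56, and 100 of 264 pairs exceeded 0.1, so a pairing of some tumors is not excluded. The F-test, pair, strain and single-score fits were tested on simulated data with independent noise for each gene and tumor. The alternatives were not tested in this way. Promoter windows were read from RefSeq (GRCm38.p6). Figures were drawn with Python 3.11.15 and matplotlib 3.10.9. The number of arrays limits the precision.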

Additional observations from a re-analysis of the deposited data

Results flagged for a closer look

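In 9 of 120 sets of 4 tumors, 1 tumor stood far from the other 3 relative to the spread of the set, by a rule that chance meets in about 1 set in 20. F311 replicate 1 was flagged for 3 members: it read 9.17 for Igf1r (nearest 9.61), 9.67 for Igfbp3 (nearest 11.80) and 8.99 for Igfbp6 (nearest 7.24). Met-1 replicate 2 was low for Igf2r at 9.57 (nearest 10.62) and for Igfbp5 at 12.23 (nearest 12.85), and remained above the other models for Igfbp5. R3T replicate 2 was high for Igf1 at 10.5 (nearest 9.28), and EMT-6 replicate 3 was high for Igfbp2 at 7.27 (nearest 6.74). E0771 replicate 1 was low for Igf1r at 9.58 (nearest 9.89). These 5 tumors are among the 9 rich in fat or B cell markers. M6 replicate 3 was low for Igf1r at 9.6 (nearest 9.98) and is not among them.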

How the results depend on the processing

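The 8 members past the F-test, the 198 passing pairs (185 to 212 with a tumor left out) and the lack of any member passing between strains stayed within 1.5 times or on the same side under all alternatives run. The replicate block gave 8 members, 194 pairs and 35 slopes. The methods' one-way test also gave 8 members. The count of slopes on marker scores did move, from 39 to 9 without the tumors rich in fat or B cell markers and to 20 with the adipocyte score as a second term (11 of the 30 on other scores, plus the 9 adipocyte slopes, which take no such term), and lay between 26 (without 6DT1 replicate 1) and 40 with 1 tumor left out. Without the rich tumors the slope changed sign for Igf2 on adipocytes (-0.039), Igf2r (0.075) and Igfbp3 (0.078) on fibroblasts, Igf2r (0.14) and Igfbp3 (0.87) on endothelium, and Igf1 (-0.23) and Igfbp7 (-0.059) on luminal markers. The adipocyte term turned Igf2r (0.0013) and Igfbp3 (0.071) on fibroblasts and Igfbp3 on endothelium (0.30) and luminal markers (0.18). The cause was not tested. Pairs of Igf2, Igfbp5 and Igfbp7 went to 8, 18 and 25 with adipocyte and B cell scores as covariates, where the share over all genes was not counted. With a model left out, the strain difference, which never passed, ran from -0.27 to 0.13 for Igf1, -0.053 to 0.58 for Igf1r, -0.32 to 0.20 for Igf2r and -0.65 to 0.18 for Igfbp6, and it was 0.15 for Igf1 without the rich tumors. The Igf2 difference of M6 and R3T ran from -0.26 to 0.93. With 4 arrays per model, the steps between neighbouring models that did not pass are not shown to be absent. With 5 models per strain, the same holds for the strain differences.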
